A study of Mus musculus with 8 samples.

Results

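The eye and the diencephalon with hypothalamus of mouse embryos at embryonic day (E) 12.5 were compared on 1 microarray each, 2 of the 8 arrays of the study. Both tissues descend from forebrain that expresses the homeobox gene Rax, and the arrays were chosen by their tissue labels alone. The study set sorted Rax reporter cells, grown from mouse embryonic stem cells with a Wnt inhibitor and activin or a hedgehog agonist, beside these tissues and E12.5 cortex. The 3 tissues were dissected from untreated embryos of the Sv129s6 strain, of both sexes, and RNA of 3 sets was pooled before labelling. The labels give 3 embryos and do not say whether these served all sets or each. With 1 pooled array a tissue there was no replicate check, no test and no p-value, and each difference below compares these 2 arrays. The cortex array serves as the third tissue where a level is set in context.

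In the embryo the eye field evaginates from the wall of the diencephalon as the optic vesicle, which folds into a cup of neural retina and pigment epithelium. The overlying surface ectoderm forms the lens, and neural crest and head mesoderm supply the mesenchyme and the muscles around the globe. The hypothalamus arises ventrally under the influence of Sonic hedgehog, beside prethalamus and thalamus, and its neurons later make the peptides that govern feeding, growth and hormone release.

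Each array held 62976 spots, and 75.0% of spots on the eye array and 73.0% on the diencephalon array were well above background. Both arrays lay in column 1 of slide 1. The spike-in slope was 0.903 for the eye and 0.900 for the diencephalon. A level is the log2 of a probe's signal over the 75th percentile of its array. Each gene is read by its own probe, so levels of different genes are not set against each other. A summed signal of a list adds linear levels and is weighted to its brightest probes. A gene was measured where its brighter array was well above background, and it was called higher or lower at a log2 difference of 1 or more (2-fold). That flag also passed for 24.7% of olfactory and vomeronasal receptor genes in the eye and 20.1% in the diencephalon. Those genes should be silent here, so the flag alone does not show expression. The scanner's own error of a difference had a median of 0.20 log2, and it covers the reading of the arrays, not the spread between embryos. Where the dimmer array was not well above background, the fold is a bound, taken against the higher of the gene's own level there and the lowest level of a probe well above background on that array. Such a bound holds for this background step only.

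Of 27831 genes measured, 3424 (12.3%) were higher in the eye and 2387 (8.58%) were lower. The median difference of all genes measured was 0.20 log2. Among the calls 58.9% were higher in the eye, against 48.5% in the authors' deposited table, so the balance of calls rests on the processing. At least 10-fold differences were fewer on the eye side, with 258 genes higher and 371 lower. The 20 largest differences upward included 10 crystallins, Aldh1a1 and the melanin genes Tyrp1, Dct and Pmel. Those downward included the forebrain regulators Foxa1, Dbx1, Nkx2-1, Lhx5, Foxb1 and Fezf1, the ligand Shh and the peptide genes Cartpt and Pmch. The size of such folds depends on the background step, which for Cryaa gave a log2 difference of 13.26, or 11.96 after normexp correction, and for Nkx2-1 -12.24 or -7.34. In whole tissue, fewer cells of a type and less RNA per cell cannot be told apart.

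**Figure D1:**
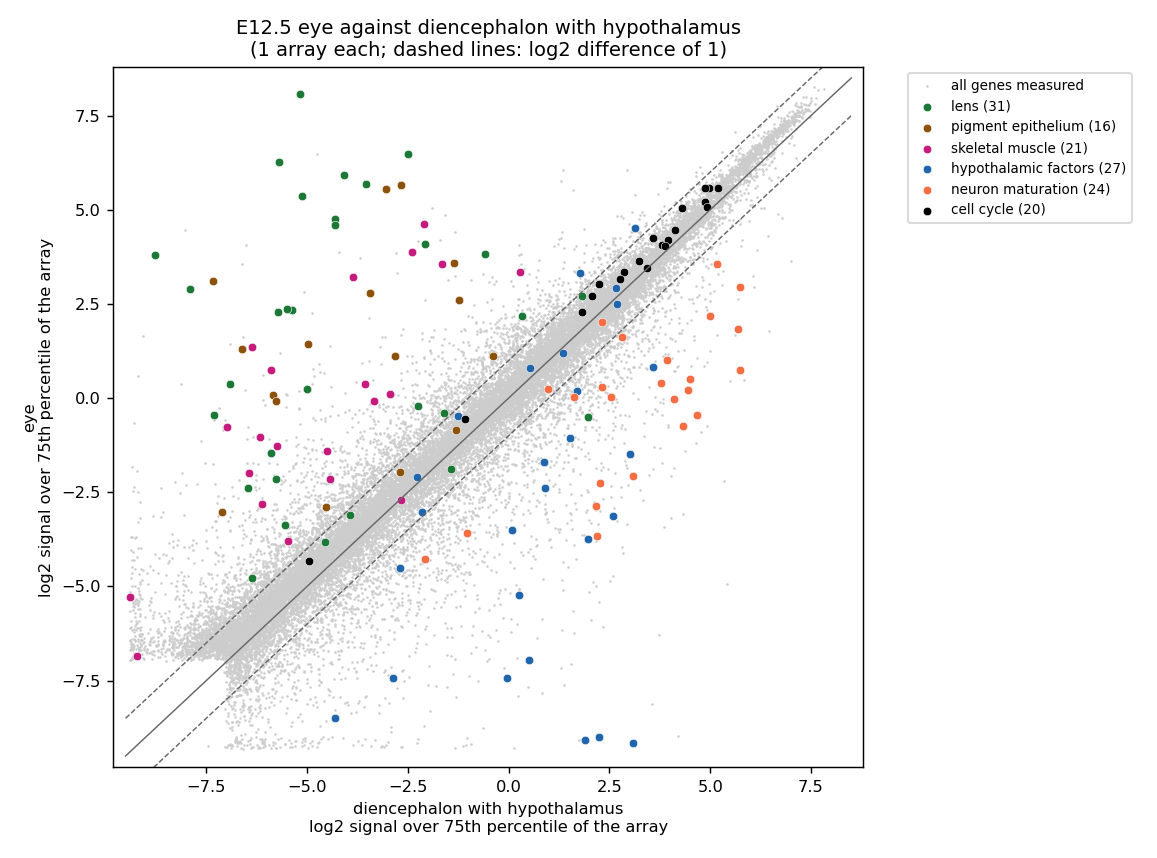
Level of each measured gene in diencephalon with hypothalamus (horizontal axis) and eye (vertical axis), as log2 signal over the 75th percentile of the array, with 6 marker lists in colour and the number of measured members in brackets. Most lens, pigment and muscle members lie far above the diagonal, neuron maturation members lie below it, and the 20 cell cycle genes lie between the dashed lines of a log2 difference of 1.

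Most regulators of the eye field had signals well above background on both arrays, 18 of 18 probes in the eye and 17 in the diencephalon. Of these eye field and retinal progenitor genes, 12 were higher in the eye and 2 were lower, with a median difference of 1.55 log2. Rax had a level of 4.53 in the eye, 3.14 in the diencephalon and -3.32 in cortex, and was 2.61-fold higher in the eye than in the diencephalon. Six6, a homeobox factor of retina and hypothalamus, followed the same order with 3.31, 1.76 and -5.09, a 2.93-fold difference between the first 2 tissues. Its relative Six3, which represses Wnt signalling in the anterior brain, was at 0.79 in the eye, 0.54 in the diencephalon and -5.15 in cortex, a difference of 1.20-fold that did not reach the threshold. Other shared factors also stayed within 2-fold: Tbx3 at 1.20-fold, Otx2 at 1.11-fold and Lhx2 at 1.55-fold higher in the eye. Lhx2 was higher in cortex, at 7.33, than in the eye at 4.34.

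Other members of that list separated the tissues widely. Hmx1, a homeobox gene of retina and lens, had a level of 3.87 in the eye and -4.20 in the diencephalon, 269-fold higher in the eye, and Foxn4, which primes retinal progenitors for amacrine and horizontal fates, was 99.4-fold higher. The secreted Wnt modulator Sfrp2 was 25.8-fold higher, Fgf15 was 16.7-fold higher, and the paired box factor Pax6 was 6.88-fold higher. In cortex these genes split, since Pax6 was at 1.76, near its eye level of 2.35, and Hmx1 was at -4.86, near its diencephalon level. Sox2, a factor of neural stem cells throughout the brain, was 2.84-fold lower in the eye, and the polarity gene Crb1 was 2.62-fold lower. The difference of Vsx1 depends on a diencephalon signal not well above background, and its bound is at least 1.64-fold.

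**Figure D2:**
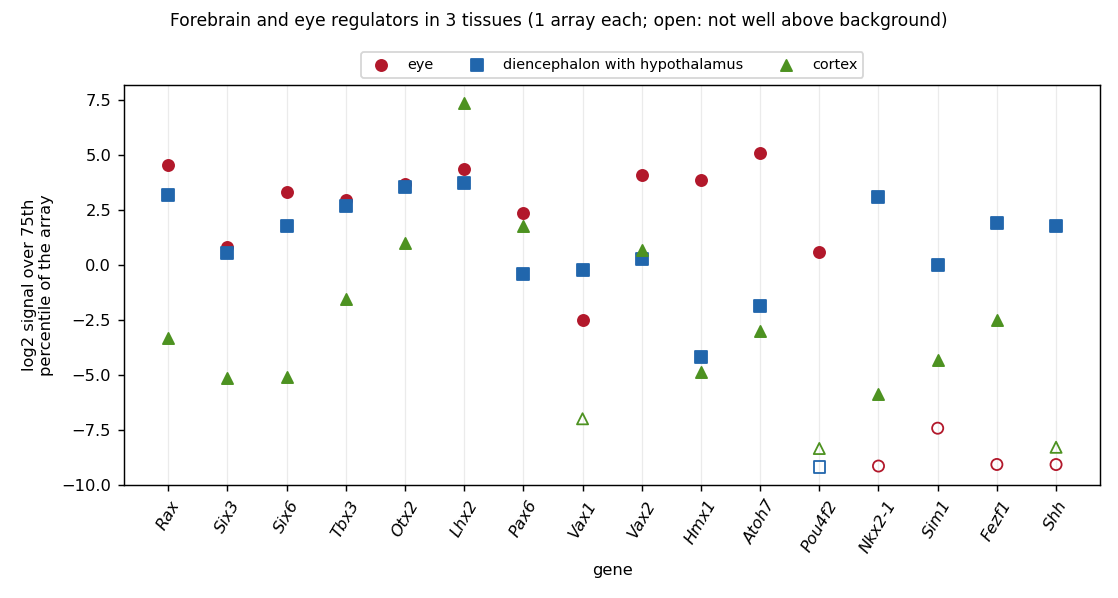
Levels of 16 eye and forebrain regulators on the eye, diencephalon and cortex arrays (vertical axis, log2 signal over the 75th percentile; open symbols are not well above background). Rax, Six3 and Six6 are high in eye and diencephalon and low in cortex, whereas Hmx1, Atoh7 and Pou4f2 are high in the eye alone of these 3 arrays and Nkx2-1, Sim1, Fezf1 and Shh in the diencephalon.

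The axes of the optic cup were represented by 19 measured genes, of which 9 were higher in the eye and 2 lower, with a median of 0.93 log2. Of the T-box genes of the dorsal retina, Tbx5 and Tbx2 were higher, while Tbx3 stayed within 2-fold, as given above. Tbx5 was at 0.08 in the eye and -5.49 in the diencephalon, a 47.4-fold difference. Tbx2 was at 1.83 and -1.58, and their inducer Bmp4 was 2.84-fold higher. The paired ventral homeobox genes went opposite ways. Vax2, of the ventral retina, was at 4.06 in the eye and 0.27 in the diencephalon, 13.9-fold higher. Vax1, of the optic stalk and the ventral forebrain midline, was at -2.54 in the eye and -0.25 in the diencephalon, 4.89-fold lower. The guidance cue Ntn1, found at the optic disc and in the ventral midline, was 4.80-fold lower. Pax2, which marks the optic stalk, was low on both arrays, at -5.18 and -6.24.

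Neurons of the retina gave a mixed picture. Of 20 neurogenic factors measured, 4 were higher in the eye and 12 were lower, with a median of -1.88 log2. After normexp correction, and in the authors' deposited table, 2 were higher. Atoh7, the bHLH factor needed for retinal ganglion cells, was the largest upward member at 5.05 in the eye against -1.90 in the diencephalon, 124-fold higher. The others higher in the eye were Gadd45a at 4.70-fold, the Notch ligand gene Dll4 at 2.40-fold and Prdm1 at 2.21-fold. Lower in the eye were the proneural gene Neurog2 at 4.54-fold, along with Olig2 at 51.8-fold and Ptf1a, needed for inhibitory retinal neurons, at 5.07-fold.

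Of 14 ganglion cell genes measured, 4 were higher and 6 lower, with a median of -0.18 log2. Pou4f2, the POU factor downstream of Atoh7, was at 0.58 in the eye and not well above background elsewhere, at least 264-fold higher than in the diencephalon. Eya2 was 11.7-fold, Irx2 8.34-fold and the RNA-binding protein gene Rbpms 3.53-fold higher. Isl1, which ganglion cells share with hypothalamic neurons, was at -0.02 in the eye and 2.66 in the diencephalon, 6.39-fold lower. Crx, the cone-rod homeobox gene of photoreceptors, was at -3.99 in the eye and at least 11.2-fold above the diencephalon, and the thyroid hormone receptor gene Thrb was 7.79-fold higher. In total, 7 of 15 photoreceptor genes measured were higher in the eye and 1, Nrl, was lower. These counts rest on the processing: 3 were higher and 0 lower after normexp correction, and 4 were higher in the authors' deposited table or where both arrays had to be above background.

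Of 31 lens genes measured, 26 were higher in the eye and 1 was lower, with a median difference of 6.16 log2, or 4.30 after normexp correction and 4.51 in the authors' deposited table. Cryaa, which encodes the chaperone alpha A-crystallin, was at 8.08 in the eye, -5.18 in the diencephalon and -5.45 in cortex. It was 9806-fold higher in the eye than in the diencephalon (probe at mm9 chr17:31818550-31818609), and its second probe differed by 10.68 log2. Among the beta-crystallins, structural proteins of the fibre cells, Cryba2 was at least 2442-fold, Crybb3 1426-fold, Crybb1 536-fold and Cryba1 497-fold higher. Among the gamma-crystallins, Cryge was 3986-fold, Cryga 1023-fold, Crygc 604-fold and Crygd 484-fold higher. These paralogs are near-identical in places and the probes of the cluster may read each other's transcripts, so the order among them is uncertain.

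Other lens proteins were higher too. Mip, the water channel of fibre membranes, was 234-fold and Lim2 at least 116-fold higher. The lens regulators Pitx3 at 37.5-fold, Foxe3 at 21.6-fold and Maf at 3.64-fold were higher, and Prox1, at 1.38-fold lower, did not reach the threshold. Sox1, which the lens shares with brain progenitors, was 5.62-fold lower in the eye, though its probes differed by -2.49 and -0.31 log2. In the diencephalon 27 of the 32 lens probes were well above background, with a summed linear signal of 11.4 times the array's 75th percentile, beside 727 in the eye and 9.25 in cortex.

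The promoters of the gamma-crystallin genes are shown because 5 of the 6 cluster members share a run of letters just upstream of the start. The sequences are from RefSeq (GRCm38.p6), 100 bases ending at the base before the annotated start, written 5′ to 3′ on the gene's strand. Capitals mark CTTTTGTG, a run picked after the sequences were seen.
Cryga: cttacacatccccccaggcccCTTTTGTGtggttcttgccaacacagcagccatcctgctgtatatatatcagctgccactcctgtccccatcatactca
Crygc: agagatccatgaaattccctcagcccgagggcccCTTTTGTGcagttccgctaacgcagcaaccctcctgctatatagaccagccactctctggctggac
Crygd: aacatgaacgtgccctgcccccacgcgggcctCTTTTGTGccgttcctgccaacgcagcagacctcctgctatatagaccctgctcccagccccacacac
Cryge: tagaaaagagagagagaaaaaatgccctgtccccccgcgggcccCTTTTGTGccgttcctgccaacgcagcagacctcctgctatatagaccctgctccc
Crygf: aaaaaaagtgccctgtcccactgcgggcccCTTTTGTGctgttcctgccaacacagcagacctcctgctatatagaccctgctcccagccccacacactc

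The stretches are on chromosome 1, at chr1:65103364-65103463 for Cryga, chr1:65073533-65073632 for Crygc, chr1:65063441-65063540 for Crygd and chr1:65051164-65051263 for Cryge, all on the minus strand. That of Crygf is at chr1:65926422-65926521 on the plus strand. The run starts 56 to 79 bases before the annotated start. Over the 250 bases upstream, on both strands, it was found in 1.21% of 32851 promoters, and in 5 of the 15 crystallin genes that had a promoter entry. Crygf itself was 208-fold higher in the eye. Crygb, whose window lacks the run, was at least 155-fold higher. The match is a description of letters and not a binding site.

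Genes of the pigment epithelium and of melanin synthesis were higher in the eye in 14 of 16 measured members and lower in 0, with a median of 5.31 log2, or 4.15 after normexp correction and 4.70 in the authors' deposited table. Mitf, the bHLH factor that specifies pigment cells, was at 3.57 in the eye and -1.34 in the diencephalon, 30.2-fold higher. The melanin enzymes followed: Tyrp1 was at least 1386-fold, Dct 324-fold and tyrosinase (Tyr) 85.0-fold higher. Pmel, the fibril protein of the melanosome, was 383-fold higher, and the transporter gene Oca2 was 244-fold higher. Dct and Rlbp1 do not separate eye from brain in general, since in cortex Dct was at 3.98 and Rlbp1 at 1.02, against -2.67 and -2.81 in the diencephalon. Trpm1 was not called on its brightest probe, at 0.46 log2, while another of its probes differed by 11.39 log2. Rpe65, Lrat and Best1, genes of the mature visual cycle and epithelium, were not well above background in the eye or the diencephalon.

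Upstream stretches of Tyr, Tyrp1 and Dct are shown for the letters they share at the melanin enzymes, 160 bases each in the same layout. Capitals mark TCATGTG, the core of the M-box that Mitf recognises.
Tyr: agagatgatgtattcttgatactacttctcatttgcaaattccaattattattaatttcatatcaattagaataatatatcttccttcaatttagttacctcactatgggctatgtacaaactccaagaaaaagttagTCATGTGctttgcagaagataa
Tyrp1: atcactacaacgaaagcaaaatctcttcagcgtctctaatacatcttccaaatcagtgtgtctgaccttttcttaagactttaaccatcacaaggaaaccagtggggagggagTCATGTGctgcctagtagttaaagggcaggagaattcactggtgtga
Dct: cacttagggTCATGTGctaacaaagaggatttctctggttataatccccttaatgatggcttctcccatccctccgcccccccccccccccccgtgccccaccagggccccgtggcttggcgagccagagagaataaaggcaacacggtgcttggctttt

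They lie at chr7:87493513-87493672 on the minus strand, chr4:80834053-80834212 on the plus strand and chr14:118052247-118052406 on the minus strand (RefSeq, GRCm38.p6). The letters start 22, 47 and 151 bases before the annotated start. Within 250 bases upstream, on both strands, TCATGTG was in 3.25% of 32851 promoters and in 5 of the 13 pigment genes that had an entry, the others being Trpm1 and Slc24a5. No binding was measured here.

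Of 27 genes of periocular mesenchyme, 16 were higher in the eye and 1 lower, with a median of 1.61 log2. Foxc1, a forkhead factor of the anterior segment, was at 3.21 in the eye and 0.67 in the diencephalon, 5.81-fold higher. Tfap2b was 12.4-fold, Osr2 14.8-fold and Lum, a corneal proteoglycan gene, 4.74-fold higher. The collagen gene Col1a1 was at 3.60 in the eye, 3.75 in the diencephalon and 2.66 in cortex. All 27 members were well above background on both arrays, with a summed signal of 214 in the eye and 93.0 in the diencephalon.

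Skeletal muscle genes were higher in 20 of 21 measured members. Myog, which commits myoblasts to differentiate, was at 1.35 in the eye and -6.35 in the diencephalon, 209-fold higher. Myl1 was 133-fold, Actc1 106-fold and the embryonic myosin gene Myh3 77.5-fold higher. The summed muscle signal was 81.0 in the eye, 2.71 in the diencephalon and 1.78 in cortex. The threshold for Myf5 holds on a dim signal, with a bound of at least 1.53-fold. Markers of crest derivatives were split: Foxd3 was at least 36.3-fold and Sox10 5.98-fold higher, whereas Ednrb was 2.78-fold lower.

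Surface ectoderm genes were higher in 9 of 20 measured members, among them Tfap2a at 5.90-fold, Krt18 at 4.45-fold and Cdh1 at 3.31-fold. Keratin genes were also present in the diencephalon array, with Krt5 at 1.94 against 2.67 in the eye and -3.92 in cortex. Erythroid genes were higher in 9 of 15 members, and all 15 leaned the same way by 1.28-fold to 3.61-fold. The summed erythroid signal was 1364 in the eye, 841 in the diencephalon and 1230 in cortex. Macrophage genes were called in 0 of 15 members, with summed signals of 25.3 and 19.6. Endothelial genes were higher in 3 of 14 and lower in 1, or 0 after normexp correction. Of all genes measured, 12.3% were higher and 8.58% lower. The part that these cell types play in the other differences was not tested.

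Extracellular matrix genes were higher in 22 of 46 members and lower in 2, with a median of 0.97 log2. Col9a1, a collagen of vitreous and cartilage, was 52.7-fold higher on its brightest probe and 0.46 log2 higher on another. The basement membrane chains Col4a3 (at least 6.46-fold), Col4a4 (5.49-fold) and Col4a6 (5.35-fold) were higher. The bound of Col4a3 rests on the background step, since its difference fell under 1 log2 after normexp correction. Col4a1 at 1.59-fold and Col4a2 at 1.69-fold did not reach the threshold. Ncan, a proteoglycan gene of brain matrix, was at -3.23 in the eye and 1.54 in the diencephalon, 27.3-fold lower.

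**Figure D3:**
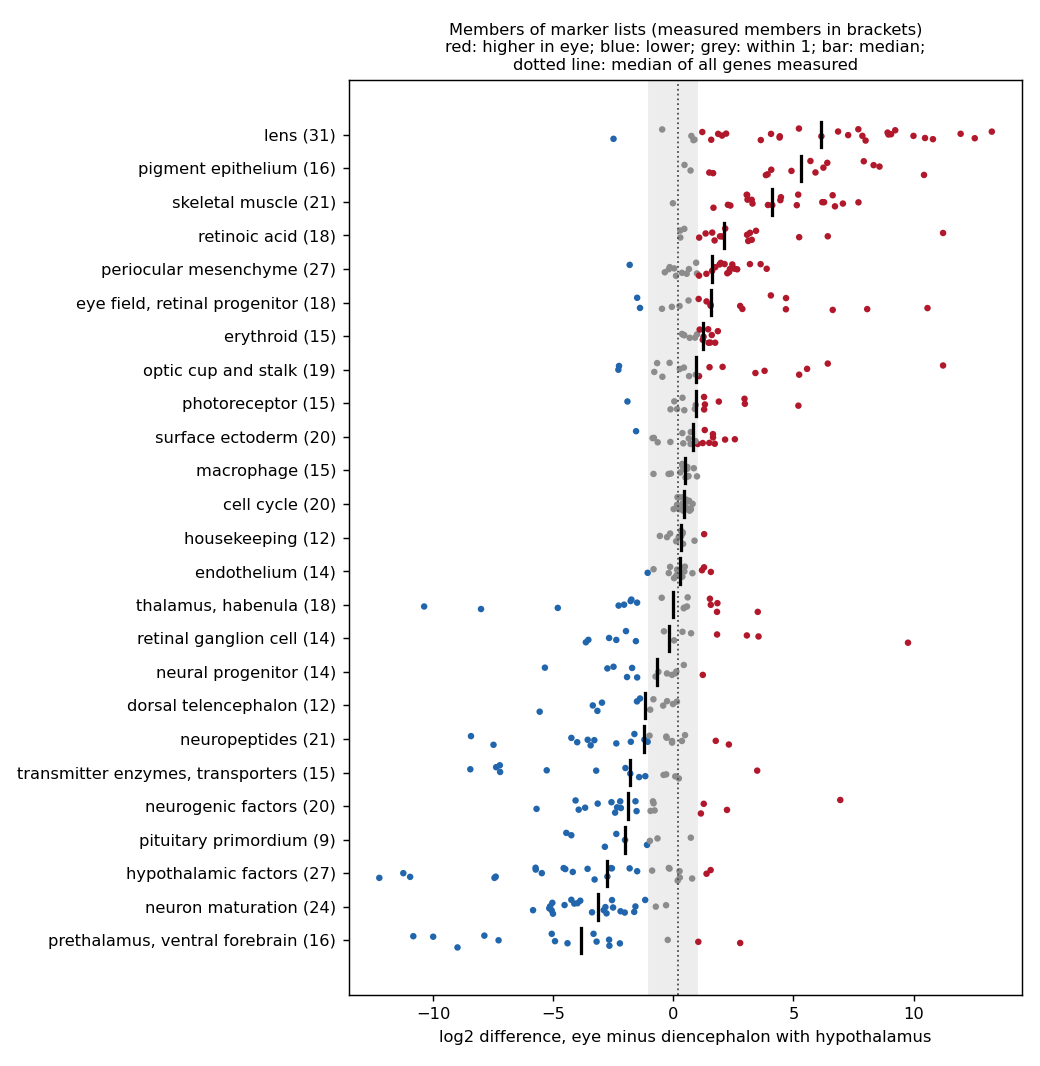
Log2 difference, eye minus diencephalon with hypothalamus, of each measured member of 25 gene lists (points; red higher, blue lower, grey within 1), with the list median as a bar and the median of all measured genes, 0.20, as a dotted line. The median is 6.16 for lens genes and -3.87 for genes of prethalamus and ventral forebrain.

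Retinoic acid, made from vitamin A by retinaldehyde dehydrogenases, patterns the optic cup and its mesenchyme. Of 18 genes of its synthesis, transport, breakdown and reception, 15 were higher in the eye and 0 lower, with a median of 2.10 log2. The synthetic enzyme genes were Aldh1a1, at 6.48 in the eye, -4.75 in the diencephalon and -4.66 in cortex, and Aldh1a3, at 4.17, -2.26 and -6.10. Against the diencephalon they were 2402-fold and 86.2-fold higher, and Aldh1a2, a mesenchymal form, was 3.29-fold higher. The vitamin A importer gene Stra6 was 10.9-fold and the cytoplasmic carrier Crabp1 3.84-fold higher. The degrading enzymes were higher as well, Cyp26a1 by 37.7-fold and Cyp26b1 by 9.13-fold. Rarb, a receptor gene that retinoic acid itself induces, was 8.40-fold higher, and its probes differed by 0.22 to 3.07 log2. The partner receptors Rxra, Rxrb and Rxrg differed by 1.22-fold to 1.37-fold and were not called.

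On the diencephalon side, regulators of the hypothalamus were lower in the eye in 18 of 27 measured members (11 of 20 where both arrays had to be above background) and higher in 2, which were Rax and Six6, also members of the eye field list. The median was -2.75 log2. Nkx2-1, the homeobox factor that defines ventral hypothalamus, was at 3.09 in the diencephalon, -5.87 in cortex and not well above background in the eye, at least 1235-fold lower there (probe at mm9 chr12:57633119-57633178). Foxb1, of the mammillary region, was at least 683-fold, Fezf1, of the ventromedial nucleus, at least 533-fold, and Sim1, of the paraventricular nucleus, at least 141-fold lower in the eye. Hmx3 was 53.1-fold and Hmx2 44.5-fold lower. Otp, a factor of neuroendocrine neurons, was at least 19.9-fold lower, and Nr5a1, of the ventromedial nucleus, 9.71-fold lower. Lhx6, Lhx8, Sim2 and Irx5 stayed within 2-fold, although a second probe of Sim2 differed by -5.57 log2 and a further probe of Lhx6 by -3.15 log2.

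Of 16 genes of prethalamus and ventral forebrain, 13 were lower in the eye and 2 higher, with a median of -3.87 log2. After normexp correction, under median scaling or in the authors' deposited table, 1 was higher. Pax6, also a member of the eye field list, was among the higher genes. Lhx5, a LIM homeobox gene of prethalamus and mammillary region, was at -6.28 in the eye and 3.72 in the diencephalon, 1024-fold lower. Lhx1 was at least 374-fold lower, while its second probe differed by -3.65 log2. Gsx1 was 234-fold lower, and the Dlx genes, which specify inhibitory neurons, were 6.33-fold (Dlx2) to 33.4-fold (Dlx5) lower. The floor and basal plate genes Foxa1 and Foxa2 belong to the pretectum and midbrain list, which was mixed. Of its 16 genes measured, 6 were lower in the eye, and 4, Gata3 among them, were higher. Where both arrays had to be above background, 3 of 12 were lower and 4 higher. Foxa1 was at 3.55 in the diencephalon and at least 1699-fold lower in the eye. Foxa2 was at least 66.3-fold lower, with a second probe at -5.45 log2.

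Thalamic genes did not move together, with 8 of 18 lower, or 5 after normexp correction, and 5 higher. Dbx1, a homeobox gene of diencephalic progenitors, was at -4.95 in the eye and 5.43 in the diencephalon, 1329-fold lower, and Olig3 was at least 71.1-fold lower. Irx1, at 11.4-fold, and Irx3, at 2.95-fold, were higher in the eye. Of 12 dorsal telencephalic genes, 6 were lower in the eye and 0 higher, and the cortex array held the highest level of both examples given here. Tbr1 was at 4.75 in cortex, -1.26 in the diencephalon and -4.43 in the eye, and Emx1 was at 2.75, -5.94 and -5.95. Of 9 pituitary genes measured, 6 were lower in the eye. Lhx3, a LIM factor of Rathke's pouch, was at 1.97 in the diencephalon and 22-fold lower in the eye, Hesx1 was 19-fold lower and Pitx1 4.03-fold lower. Summed pituitary signal was 19.4 in the diencephalon, 5.75 in the eye and 1.73 in cortex, and its part in the peptide values below was not tested.

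Neuropeptide genes of the hypothalamus were lower in the eye in 12 of 21 measured members and higher in 2. Cartpt, which encodes an appetite-suppressing peptide, was at -6.08 in the eye and 2.34 in the diencephalon, 344-fold lower. Pmch, for melanin-concentrating hormone, was 180-fold lower, Trh 19-fold, Sst 16.0-fold and Ghrh 9.78-fold lower. Pomc, shared by arcuate neurons and the pituitary, was 5.19-fold lower. Agrp, Oxt and Gnrh1, peptides of later or migrating neurons, differed by 1.04-fold to 1.23-fold. Cck, at 4.96-fold, and Gal, at 3.40-fold, were higher in the eye.

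General neuronal genes were lower in the eye nearly throughout. Of 24 neuron maturation genes, 22 were lower in the eye and 0 higher, with a median of -3.14 log2. Tubb3, the neuronal tubulin gene, was at 2.95 in the eye, 5.73 in the diencephalon and 4.84 in cortex, 6.88-fold lower in the eye. Myt1l was 57.3-fold, Mapt 35.0-fold and Dcx 33.5-fold lower, whereas Snap25 at 1.23-fold and Nefm at 1.66-fold lower did not reach the threshold. The summed signal of the list was 49.8 in the eye, 414 in the diencephalon and 141 in cortex. Transmitter genes followed in 10 of 15 measured members. The GABA synthesis gene Gad1 was at least 351-fold lower, the GABA vesicle transporter gene Slc32a1 148-fold and the glutamate transporter gene Slc17a6 166-fold lower. A second probe of Slc32a1 differed by -1.38 log2.

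Progenitor genes also leaned to the diencephalon, with 6 of 14 lower in the eye and 1 higher. Fabp7, a fatty acid carrier of radial glia, was at 0.49 in the eye, 5.84 in the diencephalon and 5.28 in cortex, 40.7-fold lower in the eye. Sox3 was 6.71-fold, Nes 3.81-fold and the Notch effector Hes5 3.29-fold lower, while Hes1 was 2.34-fold higher. Within the Notch pathway the neuronal ligands Dll3 (16.8-fold) and Dll1 (4.63-fold) were lower, and the ligands Jag1 (2.11-fold) and Dll4 (2.40-fold) were higher. In total, 8 of 19 Notch genes were lower in the eye and 3 higher. Proliferation genes did not differ by the rule, since 0 of 20 were called. Their differences ran from 1.01-fold for Ccna2 to 1.74-fold for Ccne1, all higher in the eye under this scaling. That of Ccna2 is under the scanner's median error of 0.20 log2, and median scaling moves all differences by -0.13 log2. In cortex each of Mki67, Pcna and Mcm2 was higher than on both other arrays. Cdkn2a, a cell cycle inhibitor gene, was at least 12.0-fold higher in the eye and Cdkn2b 4.78-fold higher.

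Of 14 hedgehog genes measured, 5 were higher in the eye and 3 lower, with a median of 0.61 log2. The shares over all genes measured were 12.3% higher and 8.58% lower. Shh, the ligand that ventralises the forebrain, was at 1.75 in the diencephalon and not well above background in eye or cortex, at least 486-fold lower in the eye (probe at mm9 chr5:28783983-28784042). That bound holds for the deposited signals, and the log2 difference was -5.96 after normexp correction and -7.59 in the authors' deposited table. Its feedback targets Ptch1 and Hhip were 4.73-fold and 2.15-fold lower. Gli1, another target, was at 3.05 in the eye, 2.07 in the diencephalon and -1.35 in cortex, a 1.98-fold difference just under the threshold. Ihh, which the tissue behind the retina makes in the embryo, was at -1.38 in the eye and 10.6-fold higher than in the diencephalon. The co-receptor genes Gas1, Cdon and Boc were 8.16-fold, 6.06-fold and 2.82-fold higher in the eye, and each was higher still in cortex.

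**Figure D4:**
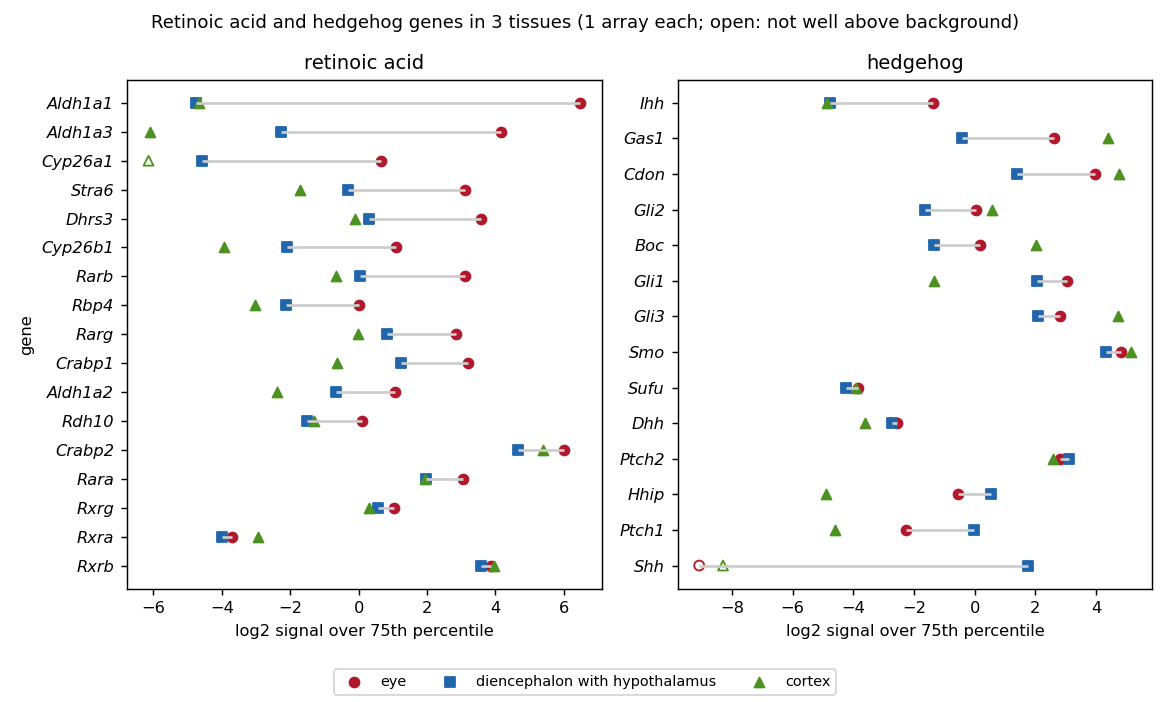
Levels (horizontal axis, log2 signal over the 75th percentile) of 17 retinoic acid and 14 hedgehog genes on the eye, diencephalon and cortex arrays; the grey bar joins eye and diencephalon, and open symbols are not well above background. Retinoic acid genes lie to the right in the eye, and Shh is well above background in the diencephalon alone of the 3 arrays.

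Among Wnt genes 16 of 42 measured were higher in the eye and 7 lower, beside 12.3% higher and 8.58% lower of all genes measured. The secreted inhibitors Dkk3 and Dkk2 were 15.1-fold and 8.59-fold higher, and the ligand genes Wnt2b (at least 5.74-fold) and Wnt5b (5.16-fold) were higher. The bound of Wnt2b rests on the background step, since its difference fell under 1 log2 after normexp correction. Wnt8b, a ligand gene of the dorsal and mammillary forebrain, was at -4.82 in the eye and 1.32 in the diencephalon, 70.8-fold lower. Wnt7a was 11.8-fold and Wnt7b 6.99-fold lower. The common feedback target Axin2 differed by 1.15-fold and was not called, while Sp5, another target, was 21.0-fold lower.

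Of 30 BMP and TGF-beta genes, 12 were higher in the eye and 3 lower, beside 12.3% higher and 8.58% lower of all genes measured. Gdf6, a dorsal eye ligand gene, was at least 32.2-fold, the antagonist gene Grem1 10.1-fold and Tgfb2 7.33-fold higher. The BMP targets of the Id family divided: Id1 (2.98-fold), Id2 (2.70-fold) and Id3 (2.56-fold) were higher, and Id4 was at -0.72 in the eye and 3.96 in the diencephalon, 25.7-fold lower. Of 26 FGF genes, 6 were higher and 6 lower, against 4 and 6 under median scaling and 3 and 4 after normexp correction. The FGF median was 0.05 log2 above that of all genes measured. Fgf9, made by neural retina, was 7.75-fold higher, and Fgf10, made in the ventral hypothalamus, was at -2.77 in the eye and -0.20 in the diencephalon, 5.94-fold lower. The feedback genes Spry1, Spry2 and Dusp6 differed by 1.26-fold to 1.58-fold.

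Of 36 axon guidance genes, 6 were higher and 6 lower, beside 12.3% higher and 8.58% lower of all genes measured. Robo3, which lets commissural axons cross the midline, was 60.8-fold lower in the eye. Ephb1, the receptor gene of ventral retina that turns axons at the chiasm, was at -2.04 in the eye and 3.48 in the diencephalon, 46.1-fold lower. Slit1 was 4.57-fold and Slit2 2.02-fold lower. Unc5b was 6.45-fold, Sema3a 5.15-fold and Sema5a 4.33-fold higher.

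The sorted reporter cells, which share no RNA with the tissues, are given here as levels alone. They are K/l-EB5 cells, a male 129/Ola line with green fluorescent protein at Rax, after 10 days in vitro with the Wnt inhibitor IWR-1-Endo at 5 μM and activin at 10 ng/ml or SAG at 100 nM. For Rax itself, Rax-positive cells stood at 5.45 after activin and 5.49 after SAG, the hedgehog agonist. They were sorted on the Rax reporter and the tissues were not sorted. Their high Rax level therefore follows from the sort and is not ranked against the tissues. For Nkx2-1 they stood at 1.34 and 4.82, beside 3.09 in the diencephalon. For Atoh7 they stood at -3.41 and -4.03, beside 5.05 in the eye and -1.90 in the diencephalon.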

How the data were processed

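Total RNA was labelled with Cy3 from 50 ng and hybridised to Agilent single-colour mouse arrays, per the labels' protocols. Scanner images were quantified in Agilent Feature Extraction, version 10.7.3.1 per the file headers and 9.1 per the submitters' processing notes, which also name limma. The deposited scanner tables hold the intensity of each spot, background-subtracted within the array and not scaled between arrays. The authors' deposited value table holds log2 values normalised between arrays, used as an alternative, with medians of 6.36 for both arrays; its background step is not given in the sources used here.

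Control spots (3671 of 62976) and outlier spots were left out, repeated spots were averaged, and each signal was divided by the 75th percentile of its array and taken to log2 (Python 3.11.15, numpy 2.4.6, pandas 2.3.3). Each gene was represented by its probe of highest mean level across all 8 arrays. A gene was called at a log2 difference of at least 1 with the brighter array well above background, and 240 genes called higher and 150 called lower have a bound under that size. Named genes are members of 38 lists (727 of 730 genes on the array), those with the largest differences and the defining markers first, or are among the 20 largest differences in each direction whose probes move alike. The members and lists were chosen with earlier results of these data known. The floor of a bound was -7.18 in the eye and -7.47 in the diencephalon; these are probe means, and the lowest single spot well above background was at -6.97 and -7.06. The number of arrays limits precision. The values of some list members that were counted are not reported here. Promoters are RefSeq sequences of GRCm38.p6, and probe positions are those of the files, on mm9; whether a probe lies in an exon or a UTR was not looked up. Alternatives were 8, with limma 3.58.1 in R 4.3.3 for normexp background correction and quantile scaling.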

Additional observations from a re-analysis of the deposited data

How the results depend on the processing

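The number of genes higher in the eye was 1664 after normexp background correction, 1846 in the authors' deposited table and 993 at a log2 difference of 2, against 3424. The number lower was 1516 after normexp and 1067 at a log2 difference of 2, against 2387. The other alternatives (median and quantile scaling, both arrays above background, no filter, mean over probes, and the authors' table for the lower genes) stayed within 1.5 times. Of 423 called list members and top genes, 0 changed direction under the scaling, background and probe alternatives. Their difference fell under 1 log2 for 48 after normexp (Nrl, Vsx1, Dll4, Prdm1, Myf5, Col4a3 and Wnt2b among them), 32 in the authors' table, 15 under median scaling, 11 under quantile scaling and 10 for the mean over probes. The sizes moved more often: of 739 such genes, called or not, the value shifted by more than the scanner's error for 260 after normexp, 239 in the authors' table, 131 under quantile scaling and 114 for the mean over probes. Median scaling moved all differences by -0.13 log2. The list medians over that of all genes kept their sign in all 38 lists under median scaling, and the sign turned for 1 list under quantile scaling and the authors' table (housekeeping), 1 under normexp (hindbrain and spinal), 1 under the mean over probes (choroid plexus) and 3 where both arrays had to be above background (hindbrain, midbrain and thalamus). The cause was not tested. Signals near background limit the largest folds. No paired analysis was possible because each group has 1 array and no test was made.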

Other observations

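Imprinted growth genes were lower in the eye in 7 of 15 members and higher in 3, beside 8.58% lower and 12.3% higher of all genes measured. Magel2, a gene of the Prader-Willi region expressed in hypothalamus, was at -0.91 in the eye, 4.76 in the diencephalon and 0.99 in cortex, 51-fold lower in the eye. Its neighbour Ndn was 5.38-fold lower. Dlk1 was 10.4-fold and Meg3, the noncoding RNA of the same cluster, 4.64-fold lower, whereas H19 was 2.72-fold and Igf2 2.96-fold higher. Plagl1, at 1.14-fold, and Mest, at 1.08-fold, did not reach the threshold.

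Some members of the transmitter, midbrain, hindbrain and choroid plexus lists were also above background. Dbh, the enzyme gene of noradrenaline synthesis, was at -3.99 in the eye and at least 11.2-fold higher than in the diencephalon, and Gata3 was 14.3-fold higher. Hoxa3, a gene of the hindbrain, was at -3.11 in the diencephalon, 12.3-fold above the eye. Ttr, of the choroid plexus list, was at 0.37 in the eye, -4.89 in the diencephalon and 2.59 in cortex, 38.3-fold higher in the eye than in the diencephalon. The source of Dbh, Gata3, Hoxa3 and Ttr transcripts in these pools was not tested. The lists themselves were mixed. Of 16 choroid plexus genes measured, 6 were higher in the eye and 4 lower, and of 11 hindbrain and spinal genes, 2 were higher and 4 lower. Olfactory and vomeronasal receptor genes, which should be silent here, were well above background for 24.7% of 1353 genes in the eye and 20.1% in the diencephalon. Of the 1353, 69 were called higher in the eye and 10 lower. The shares over all genes measured were 12.3% higher and 8.58% lower. A weak signal well above background may therefore not mark expression of its gene, on the eye array in particular.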
